A study of Homo sapiens with 4 samples.

Results

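The genes described here encode proteins of the splicing machinery: SR proteins (SRSF genes), heterogeneous nuclear ribonucleoproteins (HNRNP genes), proteins of the small nuclear ribonucleoproteins or snRNPs (SNRP genes), pre-mRNA processing factors (PRPF genes), and relatives of the Sm proteins (LSM genes). They were chosen by gene symbol, keeping protein-coding genes and, for a gene with several probe sets, the probe set with the highest mean. The symbols matched 60 probe sets, of which 6 belong to pseudogenes and were left out, and the other 54 stand for 53 genes of 14884 named on the array. These are 10 SRSF, 21 HNRNP, 11 SNRP and 10 PRPF genes and 1 LSM gene, LSM12. Genes of the SF3A and SF3B complexes and of the LSM ring on U6 RNA were not analysed here.

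Splicing removes introns in the spliceosome, which is built anew on each intron from the U1, U2, U4, U5 and U6 snRNPs. U1 and U2 recognise the ends of the intron, the preassembled U4/U6.U5 tri-snRNP then joins, and rearrangement of its RNAs forms the active site. SR proteins mostly favour the use of exons and splice sites near their binding sites, hnRNPs often oppose it, and many genes of both families regulate the splicing of their own transcripts.

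RNA came from U2OS cells, a human osteosarcoma line, 48 hours after transfection with 50 nM siRNA by a lipid reagent, either a negative control siRNA with a scrambled sequence or siRNA directed at BRPF3, a scaffold of histone acetyltransferase complexes. Each group held 2 samples, each on 1 Affymetrix whole-transcript array, and all 4 samples came from the same line. The labels call them biological replicates and do not say whether the cultures were separate, so the spread behind the p-values may be technical. BRPF3 itself has no named probe set here, so its depletion was not checked, and a single set of BRPF3 siRNA samples cannot separate depletion from effects of the siRNA itself.

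Over all named genes, 10696 were bright enough to be tested, having a mean log2 value of at least 4.59, the median over all probe sets. Of the markers of the bone lineage and mesenchyme, RUNX2, SPP1 and VIM lay above that bound and TWIST1 below it, and the other 5 of 9 were not analysed here. Among markers of other cell types, 5 of the 10 named lay above the bound: EPCAM, KRT14, CLDN7, LCP1 and GFAP. The log2 values of the 2 named leukocyte markers, CD14 and LCP1, summed to between 12.09 and 12.29 on the control arrays and between 11.47 and 11.78 on the BRPF3 siRNA arrays, and those of the 3 named endothelial markers, which lay below the bound, to between 12.17 and 12.20 and between 11.61 and 11.66. The sum of the 4 named bone lineage and mesenchyme markers lay higher after BRPF3 siRNA, between 27.13 and 27.22 against 26.40 and 26.53 in controls. Their log2 differences, BRPF3 siRNA minus control siRNA, were 0.48 (TWIST1, not tested), 0.26 (SPP1), 0.13 (VIM) and -0.16 (RUNX2). GFAP, the 1 named neural marker, also lay higher (5.33 and 5.48 against 5.20 and 5.22). The sum of the 4 named epithelial markers overlapped, with 22.72 and 22.85 in controls and 22.56 and 22.96 after BRPF3 siRNA. Their differences went both ways: 0.27 (EPCAM), 0.20 (KRT5, not tested), -0.18 (KRT14) and -0.31 (CLDN7). Of the 2 leukocyte markers, LCP1, an actin-bundling protein that many tumour lines express, fell by 0.67, while CD14 differed by 0.11 (not tested). PTPRC, CD3E and CDH5 were not analysed here, and the part of these shifts in the results below was not tested.

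After BRPF3 siRNA, 11 of the 51 tested members fell and 0 rose, in a test that called 15.8% of all tested genes (limma, Benjamini-Hochberg adjusted p under 0.05 over all 10696 genes; 21.6% of the members). The share of all tested genes that fell was 9.44% and the share that rose was 6.32%. The fallen members were PRPF3, PRPF4, PRPF6, PRPF18 and PRPF31, SNRPB, SNRPB2 and SNRPD1, SRSF4, HNRNPM and HNRNPA1L2. Their falls ran from 1.27-fold to 2.02-fold with a median of 1.31-fold. At an unadjusted p under 0.05, 23 members were lower and 0 higher, against 19.8% and 14.8% of all tested genes. RNA was taken from whole cultures, so fewer cells of a kind and less RNA per cell cannot be told apart.

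The other members mostly leaned the same way by small amounts. The log2 difference, BRPF3 siRNA minus control siRNA, was below 0 for 46 of the 51 tested members (90.2%) and for 55.1% of all tested genes. Its median was -0.22 for the members and -0.03 for all tested genes. By family the median was -0.35 for the PRPF, -0.20 for the SNRP, -0.19 for the HNRNP and -0.10 for the SRSF genes. The arrays of the groups did not overlap for 76.5% of the members and 63.2% of all tested genes. Both BRPF3 siRNA arrays lay below both control arrays for 38 members and above them for 1 (SNRPA), while 35.9% and 27.3% of all tested genes were separated in these directions. Array by array, the median of the tested members was 9.22 and 9.27 with control siRNA and 8.89 and 9.04 with BRPF3 siRNA. Of the 1478 tested genes at least as bright as the members' median (9.10), 62.7% had a difference below 0 and 13.8% fell, while 23 of the 26 members in that range were below 0 and 6 fell.

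These counts depend on how arrays are scaled to each other and on each array. After quantile or cyclic loess normalization, 5 of the 11 falls still passed (HNRNPA1L2, PRPF3, SNRPB2, SNRPD1 and SRSF4). In both settings 9.8% of the members were called in either direction, against 13.9% and 14% of all tested genes. Of the 10696 tested genes, 718 fell and 764 rose after quantile normalization, and 736 fell and 766 rose after cyclic loess normalization. The members' median was then -0.17 in both settings, with 37 and 41 of 51 below 0 and 0 risen. Of all called genes, 59.9% fell on the deposited values, 48.4% after quantile and 49.0% after cyclic loess normalization. Without control siRNA replicate 1, and without control siRNA replicate 2, 0 members and 0 of all tested genes passed limma's adjusted test (15 and 14 members at an unadjusted p under 0.05). Without BRPF3 siRNA replicate 1 or 2 most of the 11 falls lost their calls, and calls became fewer among all tested genes too. The members' median difference was -0.17 without replicate 1 and -0.24 without replicate 2. That of all tested genes was -0.03 in both cases.

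**Figure D1:**
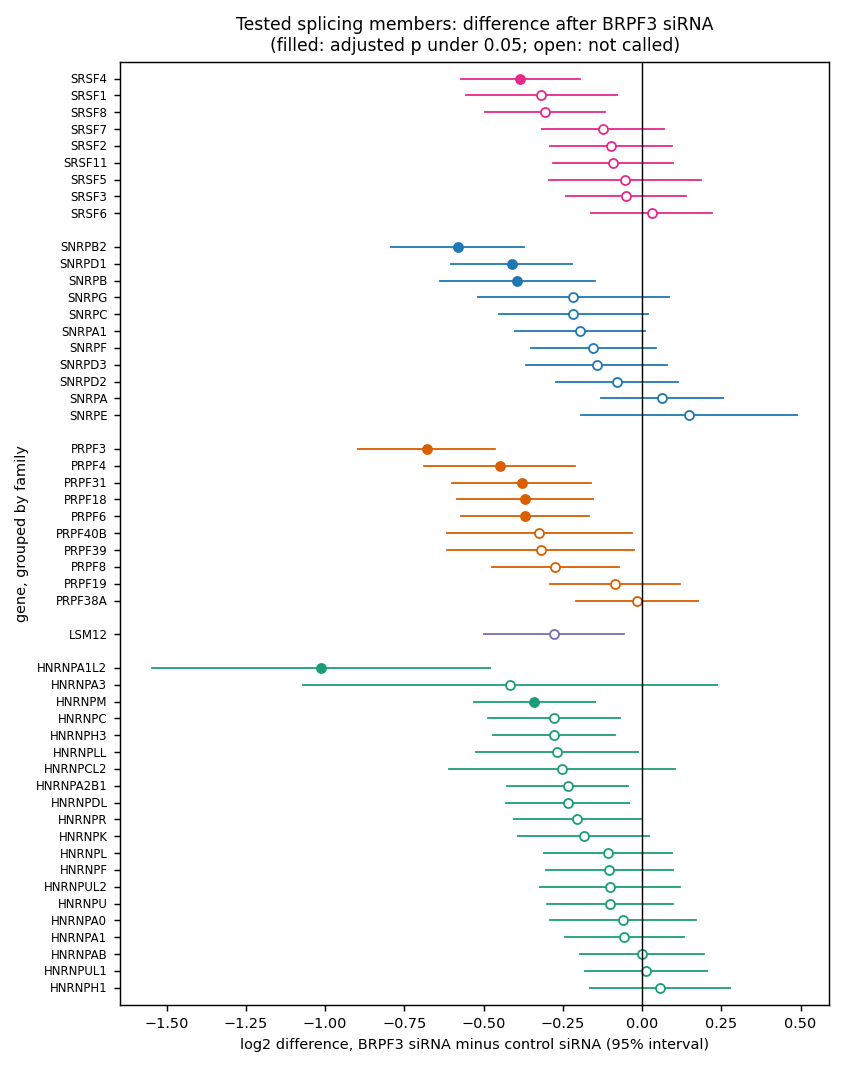
Log2 difference (BRPF3 siRNA minus control siRNA, x axis) of each of the 51 tested members with its 95% interval from limma's moderated standard error, n = 2 arrays per group, grouped by family. Filled points passed at an adjusted p under 0.05, and all 11 lie to the left of 0.

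**Figure D2:**
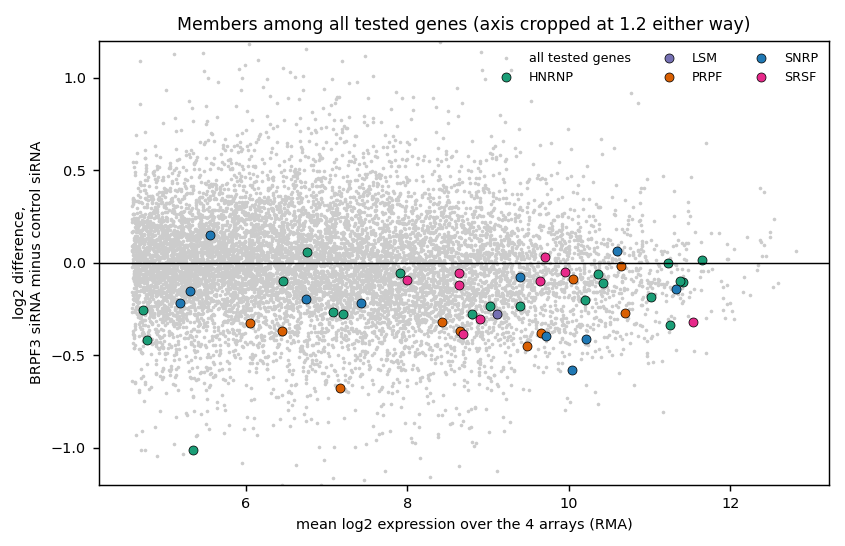
Log2 difference (y axis) against mean log2 level over the 4 arrays (x axis) for all 10696 tested genes in grey and the 51 tested members in colour by family; the y axis ends at 1.2 either way, which leaves out 32 genes, none of them a member. Members lie mostly under the zero line over the whole range of levels.

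**Figure D3:**
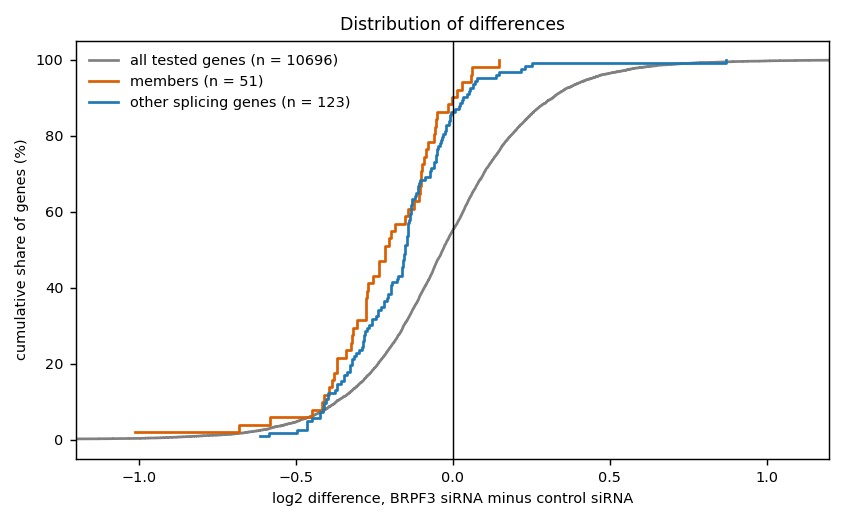
Cumulative share of genes (y axis, percent) at or below each log2 difference (x axis, ending at 1.2 either way) for all tested genes, the members and 123 tested genes of other splicing lists described further on. The curve of the members lies to the left of that of all tested genes, with medians of -0.22 and -0.03.

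Of the 51 tested members, 46 had a difference below 0 but only 11 passed the test, and the sequences upstream of the members were compared. RefSeq (GRCh38.p14) gave a start for 48 of the 53 members and for 9 of the 11 fallen ones, and the 250 bases before it were searched on both strands, taking the first listed start of a gene with several. Below are 5 of these windows, 5′ to 3′ along the strand of the gene, with capitals for exact matches to 2 of the motifs searched: CCGGAAGT, the core bound by ETS factors, or ACTTCCGG on the opposite strand, in the windows of PRPF6, SNRPB and SRSF4, and CCAAT, the box bound by NF-Y, in that of PRPF31. The window of SNRPB2, the SNRP gene with the largest fall, holds no match.
PRPF6, chr20:63980882-63981131, plus strand: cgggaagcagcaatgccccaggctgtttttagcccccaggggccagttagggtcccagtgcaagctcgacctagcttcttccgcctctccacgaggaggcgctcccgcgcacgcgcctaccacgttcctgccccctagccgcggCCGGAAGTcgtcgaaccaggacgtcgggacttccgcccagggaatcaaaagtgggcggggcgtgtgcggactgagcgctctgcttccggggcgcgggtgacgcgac
SNRPB, chr20:2470790-2471039, minus strand: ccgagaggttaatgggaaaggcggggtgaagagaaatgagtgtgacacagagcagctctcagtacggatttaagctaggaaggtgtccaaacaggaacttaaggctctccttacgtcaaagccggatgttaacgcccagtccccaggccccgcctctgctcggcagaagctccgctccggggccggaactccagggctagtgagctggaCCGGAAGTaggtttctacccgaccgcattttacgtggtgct
SRSF4, chr1:29181901-29182150, minus strand: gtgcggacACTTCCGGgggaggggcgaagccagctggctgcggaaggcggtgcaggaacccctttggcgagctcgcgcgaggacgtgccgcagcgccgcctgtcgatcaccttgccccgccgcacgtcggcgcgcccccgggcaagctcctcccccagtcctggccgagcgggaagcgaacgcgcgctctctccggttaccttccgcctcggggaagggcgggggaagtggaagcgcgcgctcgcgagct
PRPF31, chr19:54115504-54115753, plus strand: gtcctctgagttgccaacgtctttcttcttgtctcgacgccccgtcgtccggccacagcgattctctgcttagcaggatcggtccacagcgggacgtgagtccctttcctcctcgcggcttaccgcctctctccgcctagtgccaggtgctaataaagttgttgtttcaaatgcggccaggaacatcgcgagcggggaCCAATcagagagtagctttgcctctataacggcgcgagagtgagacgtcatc
SNRPB2, chr20:16729776-16730025, plus strand: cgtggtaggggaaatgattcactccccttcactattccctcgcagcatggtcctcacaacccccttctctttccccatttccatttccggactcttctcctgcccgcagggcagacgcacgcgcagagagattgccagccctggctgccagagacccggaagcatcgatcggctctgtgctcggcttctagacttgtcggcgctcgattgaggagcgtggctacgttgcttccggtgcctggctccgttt

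The ETS core stood in 3 of the 9 windows of fallen members, in 6 of 46 windows of tested members (13.0%), in 6.59% of those of tested genes and in 3.64% of all 27305 promoters. The tested members with the core that did not fall were SNRPA1, SNRPE and SRSF5. CCAAT stood in 1 of the 9, in 24 of the 46 (52.2%), in 34.7% of tested genes and in 33.0% of all promoters. The 46 windows had a median G+C content of 61.4%, against 64.8% for tested genes, and a median of 21 CpG dinucleotides against 20. TATAAA was found in 5 of the 46 windows (10.9%) and in 5.5% of those of tested genes, and CACGTG, the E-box, in 4 (8.7%) and 8.62%. GGGGCGGGG, the GC box, was found in 11 of the 46 (23.9%) and in 26.2% of tested genes. TGACGTCA, the cAMP response element, was found in 0 of the 46 and in 2.69% of tested genes. Of the 9 windows of fallen members, 1 held the E-box and 0 held TATAAA, the GC box or the cAMP response element. No motif contains another of these motifs. A match is a description of the letters and not a binding site.

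Of the 5 PRPF members that are proteins of the U4/U6.U5 tri-snRNP, 4 fell, against 9.44% of all tested genes. The 7 Sm ring members, which U4 and U5 also carry, are not counted among these 5, and 2 of them fell. Tri-snRNP proteins with other symbols are given further on, and several of them did not pass. The grouping of these 5 by role was made with the values known and so has no test of its own. PRPF3, which forms a complex with PRPF4 on the paired U4 and U6 RNAs, had log2 RMA values of 7.47 and 7.52 in controls and 6.75 and 6.89 after BRPF3 siRNA. Both BRPF3 siRNA arrays were below both controls, and PRPF3 fell 1.60-fold (-0.68 ± 0.09 on the log2 scale, adjusted p = 0.0137). Here and below the error is the SE from limma's moderated fit with n = 2 in each group. Its partner PRPF4 measured 9.65 and 9.76 in controls and 9.17 and 9.34 after BRPF3 siRNA. It fell 1.37-fold (-0.45 ± 0.10, adjusted p = 0.0353).

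PRPF31, which binds the U4 RNA and tethers U4/U6 to U5, measured 9.86 and 9.83 in controls and 9.54 and 9.39 after BRPF3 siRNA. It fell by 0.38 ± 0.09 on the log2 scale (adjusted p = 0.0423). PRPF6, which bridges the U5 and U4/U6 particles, measured 8.78 and 8.88 in controls and 8.48 and 8.44 after BRPF3 siRNA, a fall of 1.29-fold (-0.37 ± 0.08, adjusted p = 0.0382) that was not called with the replicate number as a block (adjusted p = 0.0508). The arrays of these genes did not overlap between groups. PRPF8, the large U5 protein that cradles the catalytic centre, measured 10.78 and 10.88 in controls and 10.54 and 10.57 after BRPF3 siRNA, and its difference of -0.27 ± 0.08 did not pass (adjusted p = 0.0725, 95% interval -0.47 to -0.07). The tri-snRNP count of 4 was 1 (PRPF3) after quantile or cyclic loess normalization and without either BRPF3 siRNA array, and 0 without either control array. Inherited mutations of PRPF3, PRPF4, PRPF6, PRPF8 and PRPF31 are known causes of retinal degeneration.

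Among the other PRPF genes, PRPF18, a factor of the second catalytic step, measured 6.69 and 6.56 in controls and 6.29 and 6.23 after BRPF3 siRNA. It fell by 0.37 ± 0.09 (adjusted p = 0.0431), a call that did not survive quantile or cyclic loess normalization. PRPF39 (-0.32 ± 0.12, adjusted p = 0.121) and PRPF40B (-0.32 ± 0.12, adjusted p = 0.116), which act with the U1 snRNP, did not pass. PRPF40B spread from 6.04 to 5.74 over the BRPF3 siRNA arrays, more than its controls did (6.26 and 6.17). PRPF19, the ubiquitin ligase that names the complex stabilising the active spliceosome, differed by -0.09 ± 0.08 (adjusted p = 0.511), and PRPF38A, needed for activation of the spliceosome, by -0.02 ± 0.08 (adjusted p = 0.900). All 10 PRPF differences were below 0 on the deposited values, as were 55.1% of those of all tested genes. PRPF38A moved above 0 after quantile (0.09) and cyclic loess normalization (0.08), and PRPF19 after quantile normalization (0.006).

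**Figure D4:**
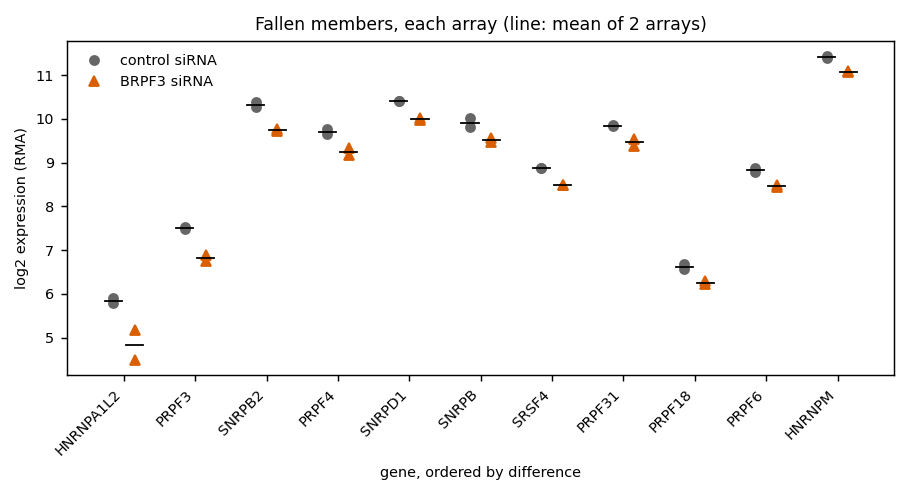
Log2 RMA value (y axis) of the 11 fallen members on each control siRNA array (circles) and BRPF3 siRNA array (triangles), with lines at the mean of 2 arrays. In every gene both triangles lie under both circles; HNRNPA1L2 has the widest spread, from 5.18 to 4.50 between the BRPF3 siRNA arrays.

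The SNRP genes encode the Sm ring, which is shared by U1, U2, U4 and U5, and proteins particular to U1 or U2. Of 11 tested, 3 fell (27.3%, against 9.44% of all tested genes) and 0 rose. SNRPB2, the U2 protein that binds the U2 RNA with SNRPA1, measured 10.27 and 10.40 in controls and 9.76 and 9.74 after BRPF3 siRNA. It fell 1.50-fold (-0.58 ± 0.09, adjusted p = 0.0161), and its arrays were further apart between groups than within them. Its partner SNRPA1 measured 6.88 and 6.81 in controls and 6.60 and 6.69 after BRPF3 siRNA, a difference that did not pass (-0.20 ± 0.08, adjusted p = 0.156). The U1 proteins SNRPA (0.06 ± 0.08, adjusted p = 0.617) and SNRPC (-0.22 ± 0.10, adjusted p = 0.172) did not pass either.

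Within the Sm ring, 2 of 7 members fell (28.6%, against 9.44% of all tested genes). SNRPD1 measured 10.41 and 10.42 in controls and 9.98 and 10.03 after BRPF3 siRNA, a fall of 1.33-fold (-0.41 ± 0.08, adjusted p = 0.0266). SNRPB measured 10.01 and 9.81 in controls and 9.56 and 9.48 after BRPF3 siRNA. Its fall of 0.39 ± 0.10 stood at the threshold (adjusted p = 0.0496) and was lost in 10 of 16 other settings, including quantile and cyclic loess normalization. The ring partner of SNRPD1, SNRPD2, measured 9.42 and 9.44 in controls and 9.38 and 9.33 after BRPF3 siRNA (-0.08 ± 0.08, adjusted p = 0.513, 95% interval -0.27 to 0.11). SNRPD3, the ring partner of SNRPB, differed by -0.14 ± 0.09 (adjusted p = 0.312). SNRPF (-0.15 ± 0.08) and SNRPG (-0.22 ± 0.12) did not pass, nor did SNRPE (0.15 ± 0.14, adjusted p = 0.490). SNRPE, the 1 member with several probe sets, had a second probe set that differed by -0.19, so its direction depends on the probe set.

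Among the SR proteins, 1 of 9 tested members fell (11.1%, against 9.44% of all tested genes). On the deposited values 8 of the 9 differences were below 0, against 55.1% of all tested genes. SRSF3 and SRSF5 moved above 0 after quantile (0.04 and 0.01) and cyclic loess normalization (0.03 and 0.01). SRSF4 measured 8.88 on both control arrays and 8.49 and 8.50 after BRPF3 siRNA. It fell by 0.38 ± 0.08 (adjusted p = 0.0294) and kept its call after quantile and cyclic loess normalization. SRSF8 measured 9.05 on both control arrays and 8.72 and 8.77 after BRPF3 siRNA, and at -0.31 ± 0.08 it lay just outside the threshold (adjusted p = 0.0501). SRSF1, a general splicing factor and oncoprotein, measured 11.67 and 11.71 in controls and 11.27 and 11.47 after BRPF3 siRNA, with no overlap, and did not pass (-0.32 ± 0.10, adjusted p = 0.0770).

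The other SR genes stayed within 0.13 of no difference. SRSF3, the smallest of the classical family, measured 10.00 and 9.97 in controls and 9.94 and 9.92 after BRPF3 siRNA (-0.05 ± 0.08, adjusted p = 0.679). SRSF6 differed by 0.03 ± 0.08 (adjusted p = 0.815) and SRSF5 by -0.05 ± 0.10 (adjusted p = 0.728), both with overlapping arrays. SRSF2, SRSF7 and SRSF11 differed by -0.10 ± 0.08, -0.12 ± 0.08 and -0.09 ± 0.08 and did not pass. The 95% intervals of these 6 genes ran at most from -0.32 to 0.22, so a change as large as that of SNRPB2 lies outside them. SRSF12, a repressor of splicing, lay between 3.44 and 3.84 on all arrays, under the bound, and was not tested. Several SR transcripts can include an unproductive exon, and a probe set that averages over a transcript does not tell such forms apart.

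Among the hnRNPs, 2 of 20 tested members fell (10.0%, against 9.44% of all tested genes). HNRNPM, a regulator of exon use that binds GU-rich RNA, measured 11.39 and 11.44 in controls and 11.09 and 11.07 after BRPF3 siRNA. It fell 1.27-fold (-0.34 ± 0.08, adjusted p = 0.0401), a call lost after quantile or cyclic loess normalization and with the replicate number as a block (adjusted p = 0.0529). HNRNPA1L2 measured 5.79 and 5.90 in controls and 5.18 and 4.50 after BRPF3 siRNA, 1 of these under the bound of 4.59. It fell 2.02-fold (-1.01 ± 0.22, adjusted p = 0.0349). Its difference was -0.67 without BRPF3 siRNA replicate 2 and -1.35 without replicate 1, so the size of the fall is uncertain.

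HNRNPA1L2 is a retrocopy of HNRNPA1 with near-identical sequence, and which of these transcripts its probes read is not given in the sources used here. HNRNPA1, among the most abundant hnRNPs of growing cells, measured 7.94 on both control arrays and 7.89 and 7.88 after BRPF3 siRNA (-0.06 ± 0.08, adjusted p = 0.639). The probe sets of the HNRNPA1 pseudogene HNRNPA1P10, which is no member, differed by -0.26 and -0.13. The first lay between 7.61 and 7.93 and the second between 11.84 and 11.98, far brighter than the probe set named HNRNPA1. The difference of -0.06 may therefore not stand for most HNRNPA1 transcripts. These values are uncertain for all near-identical copies, as are those of HNRNPA3, HNRNPC, HNRNPCL1 and HNRNPCL2. HNRNPA3 measured 4.56 and 5.41 in controls and 4.47 and 4.66 after BRPF3 siRNA, with overlap and an SE of 0.26. HNRNPCL1 lay between 2.12 and 2.50 and was not tested.

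Other hnRNPs, bright and dim, did not pass, though several were separated. HNRNPA2B1, which binds RNA together with the A1 proteins, measured 9.13 and 9.16 in controls and 8.88 and 8.93 after BRPF3 siRNA (-0.24 ± 0.08, adjusted p = 0.0946). HNRNPC (-0.28 ± 0.08, adjusted p = 0.0769), HNRNPH3 (-0.28 ± 0.08, adjusted p = 0.0643) and HNRNPDL (-0.23 ± 0.08, adjusted p = 0.0976) were separated and did not pass. HNRNPK, which binds C-rich RNA, differed by -0.18 ± 0.08, HNRNPR by -0.20 ± 0.08, and HNRNPLL, a regulator of CD45 splicing in lymphocytes, by -0.27 ± 0.10. HNRNPCL2 differed by -0.25 ± 0.14 with overlapping arrays.

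A further 8 hnRNP genes lay within 0.11 of no difference. HNRNPF measured 11.42 and 11.52 in controls and 11.36 and 11.37 after BRPF3 siRNA (-0.10 ± 0.08, adjusted p = 0.411), and HNRNPH1, of the same G-run binding family, differed by 0.06 ± 0.09 (adjusted p = 0.691). HNRNPUL1 measured 11.62 and 11.65 in controls and 11.62 and 11.68 after BRPF3 siRNA (0.01 ± 0.08, adjusted p = 0.925). HNRNPU, HNRNPUL2, HNRNPL, HNRNPA0 and HNRNPAB had log2 differences of -0.10, -0.10, -0.11, -0.06 and -0.0012, in this order. LSM12, an Sm-like protein that is no part of the ring on U6 RNA, measured 9.22 and 9.27 in controls and 8.89 and 9.04 after BRPF3 siRNA and did not pass (-0.28 ± 0.09, adjusted p = 0.0895).

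Other genes of the pathway, in 7 lists compiled by function, were read in the same fit. Of 163 listed genes 127 had a named probe set and 123 were tested, of which 22 fell and 1 rose (18.7% called, against 15.8% of all tested genes and 18.9% of those at least as bright as the members' median). Of 16 tested snRNP proteins outside the families above, 5 fell (31.2%, against 9.44% of all tested genes) and 0 rose. All 16 differences were below 0, as were 55.1% of those of all tested genes. EFTUD2, the U5 GTPase that works beside PRPF8, fell 1.33-fold (11.22 and 11.24 in controls, 10.85 and 10.78 after BRPF3 siRNA; -0.41 ± 0.08, adjusted p = 0.0278). USP39 (-0.46 ± 0.09) and SART1 (-0.41 ± 0.08), which help the tri-snRNP join, fell, as did TXNL4B (-0.37 ± 0.08) and the cyclophilin PPIH (-0.31 ± 0.08), a partner of PRPF3 and PRPF4. The tri-snRNP proteins SNRNP200 (-0.15 ± 0.08), DDX23 (-0.16 ± 0.08), TXNL4A (-0.17 ± 0.09), SNRNP40 (-0.18 ± 0.09), SNRNP27 (-0.30 ± 0.08) and SNU13 (-0.006 ± 0.08) did not pass. The list held 2 falls after quantile and 3 after cyclic loess normalization, 0 without BRPF3 siRNA replicate 1 and 2 without replicate 2.

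Of 23 tested factors of the Prp19 complex and the catalytic steps, 9 fell (39.1%, against 9.44% of all tested genes) and 0 rose. All 23 differences were below 0, as were 55.1% of those of all tested genes. CDC5L, a core subunit of the Prp19 complex, measured 10.73 and 10.63 in controls and 10.23 and 10.32 after BRPF3 siRNA (-0.40 ± 0.09, adjusted p = 0.0354). The second-step factors CDC40 (-0.38 ± 0.08) and SLU7 (-0.40 ± 0.08) fell, as did the cyclophilin CWC27 (-0.41 ± 0.08). BCAS2, CWC15, DHX35, RBM22 and ZNF830 were the other 5 that fell, by 0.32 to 0.47. The list held 3 falls after quantile or cyclic loess normalization and 0 without either BRPF3 siRNA array. Without either control array, 0 genes of any of the 7 lists passed.

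Of 15 tested genes of snRNP assembly and Sm methylation, 5 fell (33.3%, against 9.44% of all tested genes) and 0 rose. STRAP, a subunit of the SMN complex that loads Sm rings onto snRNAs, fell 1.41-fold (10.78 and 10.79 in controls, 10.32 and 10.25 after BRPF3 siRNA; -0.50 ± 0.08, adjusted p = 0.0186). PRMT5, the methyltransferase that modifies SNRPB, SNRPD1 and SNRPD3, measured 7.92 and 7.93 in controls and 7.52 on 1 and 7.53 on the other BRPF3 siRNA array, and fell by 0.40 ± 0.08 (adjusted p = 0.0272). The adaptors of snRNA export and snRNP import PHAX (-0.37 ± 0.08) and SNUPN (-0.45 ± 0.09) and the Cajal body protein COIL (-0.42 ± 0.10) fell as well. The list held 3 falls after quantile or cyclic loess normalization, 2 without BRPF3 siRNA replicate 1 and 0 without replicate 2. Of 14 factors of the 3′ splice site and branch point 2 fell (14.3%, against 9.44% of all tested genes) and 0 rose. They were the helicase DHX15 (-0.35 ± 0.08) and U2AF1 (-0.59 ± 0.08, adjusted p = 0.0138). U2AF1 measured 7.15 and 7.16 in controls and 6.57 on both arrays after BRPF3 siRNA. It has a near-identical copy in the genome and is uncertain for that reason. That list held 1 fall after quantile or cyclic loess normalization and 1 without either BRPF3 siRNA array. U2AF2, the other subunit of the U2AF dimer, measured 11.35 and 11.40 in controls and 11.62 and 11.64 after BRPF3 siRNA and did not pass (0.25 ± 0.08, adjusted p = 0.0800).

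The regulators outside the SR and hnRNP families showed few calls. Of 24 tested genes 1 rose and 1 fell (8.33% called, against 15.8% of all tested genes). PTBP2, a pyrimidine tract binding protein prominent in neurons, measured 9.19 and 9.00 in controls and 9.90 and 10.04 after BRPF3 siRNA. It rose 1.83-fold (0.87 ± 0.10, adjusted p = 0.0122), and its rise passed in all but 3 of the 16 other settings, those without moderation and without either control array. Its paralog PTBP1, which in many cells holds PTBP2 down through exon skipping, measured 12.37 and 12.34 in controls and 12.35 and 12.33 after BRPF3 siRNA (-0.01 ± 0.08, adjusted p = 0.914, n = 2 arrays per group), and PTBP3 differed by 0.08 ± 0.09 (adjusted p = 0.582). TARDBP, the RNA-binding protein TDP-43, fell by 0.61 ± 0.12 (7.33 and 7.31 in controls, 6.55 and 6.86 after BRPF3 siRNA; adjusted p = 0.0272). Of 24 SR protein kinases and SR-like proteins, and of 7 genes of the exon junction complex and nonsense-mediated decay, 0 passed limma's adjusted test. At an unadjusted p under 0.05, 1 gene was higher and 1 lower in each of these lists, and without BRPF3 siRNA replicate 2 the adjusted test called 1 fall among the kinases and SR-like proteins. The median difference was -0.12 in that list, -0.28 for the Prp19 and catalytic step factors, -0.28 for snRNP assembly and -0.23 for the other snRNP proteins.

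**Figure D5:**
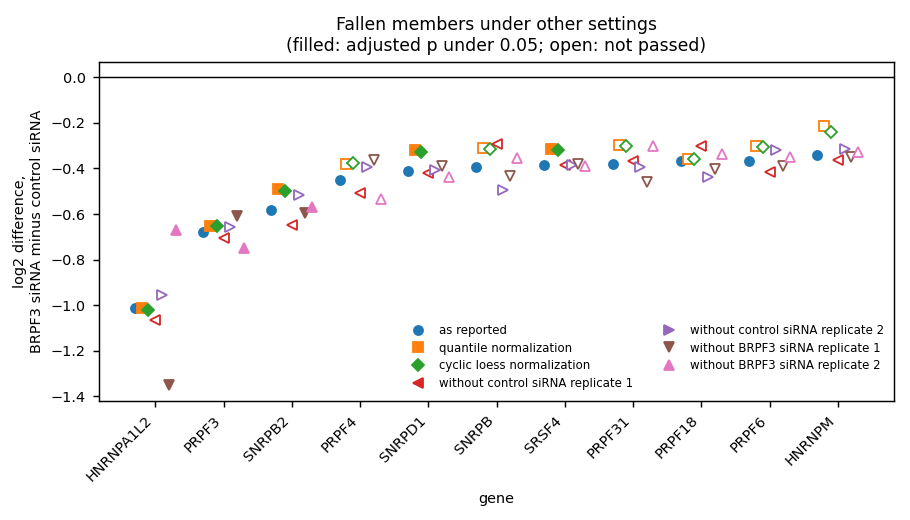
Log2 difference (y axis) of the 11 fallen members as reported, after quantile or cyclic loess normalization, and without each array in turn; filled symbols passed at an adjusted p under 0.05. All symbols lie below 0, and PRPF3, SNRPB2 and HNRNPA1L2 are filled in every setting shown except those without a control array.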

How the data were processed

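Gene expression was measured on 4 Affymetrix arrays of U2OS cells, 2 per siRNA, with labelled material made from 250 ng of total RNA per the labels. The deposited log2 values of 53617 probe sets were made with RMA per the submitters' processing notes, which give neither version nor settings. They lay between 0.80 and 13.57, had a median of 4.60 on each array and were analysed without further transformation. RMA scales arrays to each other, so a difference is relative to most transcripts on the array, and it compresses differences of dim probe sets. The number of arrays limits the precision.

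A platform annotation named 16098 probe sets with 1 gene each, for 14884 genes. RefSeq (GRCh38.p14) gave gene classes and promoters, and promoter coordinates are those of that build. The test was limma 3.58.1's lmFit and eBayes (R 4.3.3, without trend, two-sided), on 1 probe set per gene and genes with a mean of at least 4.59, with 2 residual and 3.81 prior degrees of freedom. The procedure was tested on simulated data. An exact permutation test of 2 against 2 arrays cannot go below p = 0.333. The members and lists were chosen with earlier results of these data known. Genes named were every fallen member, the 2 extremes by moderated t and the 2 brightest per family, 6 fixed genes (of which SF3B1 was not analysed here), and up to 4 called genes per direction and list. Other genes, including PPIH, COIL, BCAS2, CWC15, DHX35, RBM22, ZNF830, U2AF2, PTBP1 and PTBP3, were named after their values were seen. Alternatives covered normalization, replicate block, eBayes options, filters, probe sets, threshold and leaving out each array.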

Additional observations from a re-analysis of the deposited data

How the results depend on the processing

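The other settings were planned for the members, and those for the other splicing genes were chosen later, with the data known. The number of fallen members, 11, was 5 after quantile and 5 after cyclic loess normalization, and 21 with an intensity trend. It was 0 without moderation (18 at an unadjusted p under 0.05) and 2 without an intensity filter. With the filter at the 75th percentile it was 18 of 44 tested members, and at an adjusted p under 0.1 it was 19. Calls in either direction took in 41.2% of the members and 24.7% of all tested genes with the trend. These shares were 3.77% and 2.75% without a filter and 40.9% and 34.1% with the filter at the 75th percentile. At an adjusted p under 0.1 they were 37.3% and 26.9%. Leaving out 1 array gave 0 to 3 (0 without either control array), and 0 members rose under any of the 16 settings. The members' median difference, -0.22, was -0.17 after quantile and -0.17 after cyclic loess normalization, and between -0.24 and -0.17 when 1 array was dropped. The 22 fallen and 1 risen of the other splicing genes were 10 and 2 after quantile, 11 and 2 after cyclic loess normalization, 38 and 3 with an intensity trend, 0 and 0 without moderation, 39 and 4 with the filter at the 75th percentile and 38 and 2 at an adjusted p under 0.1. Without an intensity filter 1 of them fell. With an array left out, from 0 to 5 fell and from 0 to 1 rose. The cause of these changes was not tested, beyond the fewer arrays or the different number of genes that a setting itself brings.

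Arrays of the same number shared deviations weakly (r = 0.14 across 10696 genes and 0.21 across the 51 tested members). The series' design text calls the arrays numbered 2 a set of biological replicates and does not say whether a number marks a shared day or batch, so the block was kept as an alternative. With the replicate number as a block 9 members fell and 0 rose, HNRNPM and PRPF6 losing their calls, and 18 other splicing genes fell and 1 rose. Where 1 array of a group was dropped, the remaining one was taken to vary as the arrays of the other group do.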
